A study of Mus musculus with 4 samples.

Results

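The iron uptake, storage and export genes described here are 10 genes chosen by name: Tfrc, Trfr2, Slc25a37, Slc11a2, Slc40a1, Fth1, Ftl1, Ireb2, Hmox1 and Steap3. All 10 were found among the 23240 gene rows of the deposited table. RNA sequencing was done on bone marrow cells from leukaemic mice that carry the cell type label RUNX1-FLT3ITD_AML and were sorted as GFP+BFP+CD11b-Gr1- (FLT3-ITD is an activating duplication within the FLT3 receptor). The cells spent 22 h in SFEM medium with FLT3L, SCF, IL3 and IL11, and received either 200 nM 4OHT (4-hydroxytamoxifen, the active form of tamoxifen) or its solvent EtOH. The EtOH and 4OHT libraries numbered replicate 1 have the genotype B6.Runx1-delta/delta and are called the delta/delta pair below, and those numbered replicate 2 have B6.Runx1-delta/+ and are called the delta/+ pair. All 4 libraries thus carry at least 1 delta allele of Runx1. The labels name neither the protein that 4OHT acts on nor the mice and cultures behind each library, so replicate number, mouse and genotype cannot be told apart, and p-values measure only the spread between these libraries.

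Cells take up iron bound to transferrin, which the transferrin receptor carries into an endosome. There the iron is reduced and moved into the cytosol, from which it goes to mitochondria for haem and iron-sulphur clusters, into ferritin for storage, or out of the cell through ferroportin. Red cell precursors rely heavily on this route, since haemoglobin needs iron. Iron regulatory proteins set the balance after transcription: when iron is scarce they bind short hairpins, the iron-responsive elements, which stabilises transferrin receptor mRNA and blocks translation of ferritin and ferroportin mRNA.

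The elements are printed because their position sorts the genes into those stabilised and those blocked by the same proteins. A protein-coding transcript was found for 10 of 10 genes in the GENCODE annotation of GRCm38, and 1 was searched for each gene on its own strand. The pattern was a C, 5 letters, the loop CAGTGN, and 5 letters that pair with the first 5 (G with T allowed), 17 letters in all. It occurred 7 times in 4 of the 10 genes, and in 1.24% of 21877 genes with such a transcript. Capitals mark the 6 letters of the loop, and 6 further letters are shown on each side of the element.
Tfrc element 1, 3' UTR, chr16:32631219-32631247, plus strand: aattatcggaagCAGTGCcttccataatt
Tfrc element 2, 3' UTR, chr16:32631598-32631626, plus strand: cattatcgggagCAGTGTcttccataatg
Tfrc element 3, 3' UTR, chr16:32631663-32631691, plus strand: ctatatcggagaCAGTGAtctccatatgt
Tfrc element 4, 3' UTR, chr16:32631710-32631738, plus strand: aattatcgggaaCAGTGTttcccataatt
Fth1 element 1, 5' UTR, chr19:9982732-9982760, plus strand: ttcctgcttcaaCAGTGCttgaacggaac
Ftl1 element 1, 5' UTR, chr7:45459779-45459807, minus strand: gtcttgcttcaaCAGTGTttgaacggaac
Slc40a1 element 1, 5' UTR, chr1:45925465-45925493, minus strand: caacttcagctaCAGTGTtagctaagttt
Tfrc held 4 matches in its 3' UTR, a region in which 0.539% of genes hold one. Fth1, Ftl1 and Slc40a1 each held 1 in the 5' UTR, as did 0.0914% of genes. The other 6 genes had no match, which says only that these letters are not in the transcript searched. The table holds 1 RNA value per gene and no protein level, so binding at these elements was not measured.

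Depth recovered from the steps of the values was 33.7 to 39.4 M mapped reads per library, and 1 read in a gene of 1 kb was worth 0.0254 to 0.0297 RPKM (reads per kilobase of gene and per M mapped reads). Runx1 itself stood at 568 and 380 RPKM in the delta/delta pair (EtOH, then 4OHT) and at 555 and 328 RPKM in the delta/+ pair. It did not differ between the genotypes beyond the test (limma adjusted p = 0.491), and the labels do not say which part of the gene is missing, so this value does not check the genotype. Of 8 markers of immature myeloid cells 3 could be tested. Myb, a transcription factor of immature blood cells, rose from 17.0 to 99.2 RPKM in the delta/delta pair and from 37.5 to 84.5 in the delta/+ pair (limma adjusted p = 0.013). Flt3 stood at 12.6 to 46.3 RPKM. Kit was lower, at 0.0781 and 1.61 RPKM in the delta/delta pair and 0.0973 and 0.740 in the delta/+ pair. It was thus higher with 4OHT in both pairs, but too low to be tested. Cd34 and Mpo reached at most 0.395 and 0.556 RPKM. In limma without a filter on low values 2 of the 8 markers rose and 0 fell. Without the genotype term 0 of the 3 tested were called. The 8 markers summed to 32.1 RPKM with EtOH and 122 with 4OHT in the delta/delta pair, and to 86.2 and 126 in the delta/+ pair. Myb made up most of both 4OHT sums, so the sums do not describe the list as a whole. Flt3 went from 12.6 to 16.8 RPKM in the delta/delta pair but from 46.3 to 39.7 in the delta/+ pair. Of the genes sorted against, Itgam (CD11b) stood at 0.168 to 0.358 RPKM, and Ly6c2, a relative of the Gr1 antigen, at 1.44 to 7.48 RPKM and highest in 4OHT of the delta/delta pair. Of 19 red cell markers 18 fell with 4OHT and 0 rose, and their summed level went from 63743 to 4786 RPKM in the delta/delta pair and from 34260 to 3188 RPKM in the delta/+ pair. Over all genes 10.2% fell and 22.2% rose. In limma 9 of the 19 fell without the genotype term, and 1 fell when EtOH of replicate 1 was left out as well. None of the 19 was at 0 in a library. Slc4a1, the anion exchanger of the red cell membrane, went from 918 to 14.0 RPKM and from 181 to 3.15 RPKM. The part of these marker lists in the iron results was not tested, and in bulk RNA fewer red cell precursors and less such RNA per cell cannot be told apart.

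With 4OHT 5 of the 10 iron genes fell, 1 rose and 4 did not pass the test, which was limma on log2(RPKM + 1) with genotype in the model and a Benjamini-Hochberg adjusted p under 0.05 over 9595 genes. Tfrc, Trfr2, Steap3, Slc25a37 and Ftl1 fell, and Hmox1 rose. Of all 9595 genes tested 32.4% were called, with 10.2% lower and 22.2% higher. The median log2 change was -0.52 over the 10 genes and 0.16 over all genes. Both EtOH libraries were above both 4OHT libraries for 7 of the 10 genes (16.9% of all genes), and the reverse held for 0 of the 10 (38.4% of all genes). The split over all genes depends on the scaling, with 2130 higher and 983 lower on the deposited values and 1441 higher and 1666 lower with median-ratio scaling, which moved the median of all genes from 0.16 to -0.04. Under that scaling 1 iron gene rose and 7 fell. Without the genotype term (no replicate block) 1 of the 10 genes passed, Trfr2. In that smaller model 0 genes passed when the EtOH library of replicate 1 was also left out (3 had an unadjusted p under 0.05), and 2 passed without each of the other libraries.

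**Figure D1:**
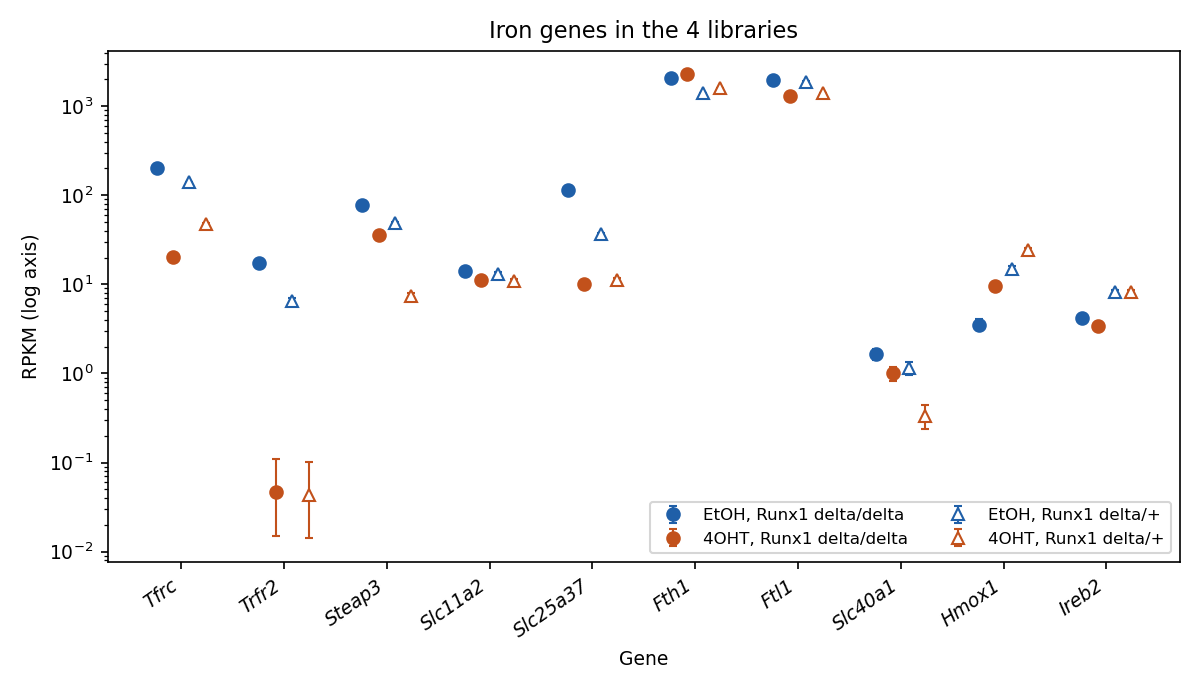
RPKM of each iron gene in the 4 libraries on a log axis, with 95% Poisson intervals of the read counts (counting error only). Blue marks EtOH, orange 4OHT, circles Runx1 delta/delta and triangles Runx1 delta/+. Fth1 and Ftl1 are at 1308 RPKM or more in every library, while Trfr2 spans 0.0434 to 17.5 RPKM.

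**Figure D2:**
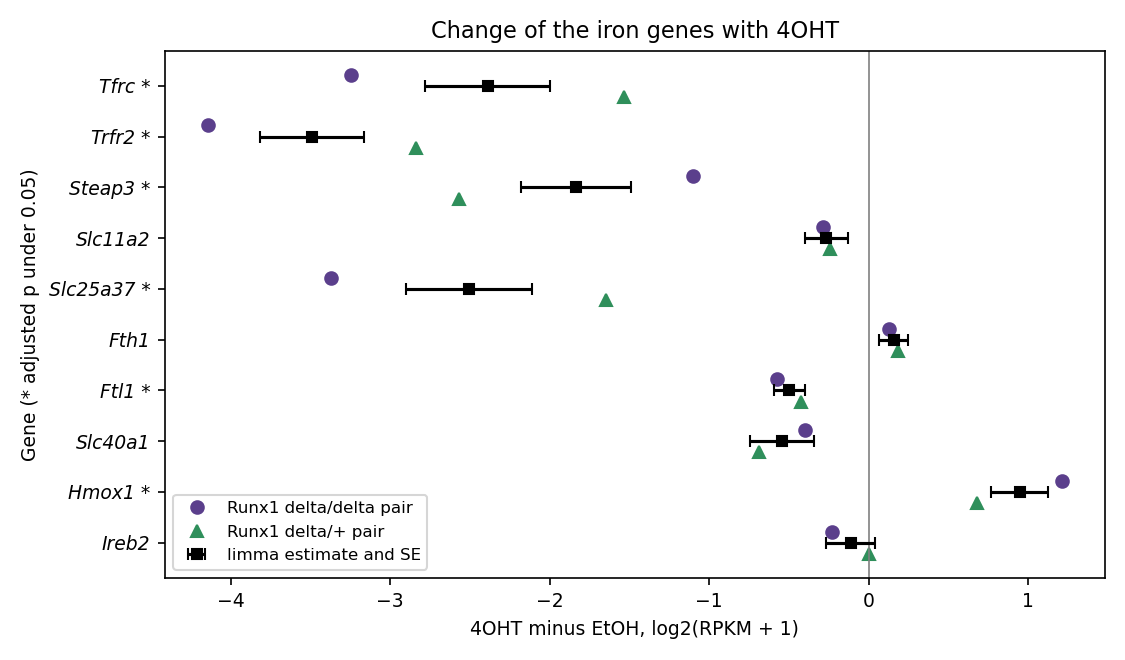
4OHT minus EtOH in log2(RPKM + 1) for each iron gene. Squares are the limma estimates with their SE, circles the delta/delta pair and triangles the delta/+ pair, and an asterisk marks an adjusted p under 0.05. Trfr2, Slc25a37, Tfrc and Steap3 have the lowest estimates (-3.49, -2.51, -2.39 and -1.83), and Hmox1 the highest (0.95).

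Tfrc encodes transferrin receptor 1 (CD71), the main entry of transferrin iron into cells. The delta/delta pair had 203 RPKM with EtOH against 20.5 with 4OHT, and the delta/+ pair had 139 against 47.4 RPKM. Both EtOH libraries were thus above both 4OHT libraries. The level was 9.89-fold lower in the first pair (95% counting interval 9.56 to 10.2) and 2.94-fold lower in the second (2.87 to 3.01). The estimate over both pairs was -2.39 on the log2 scale (SE 0.39, lower in 2 of 2 pairs, limma adjusted p = 0.0113). The limma call did not survive leaving out the genotype term (adjusted p = 0.0588). In that smaller limma model the estimate ran from -1.81 without 4OHT of replicate 1 (adjusted p = 0.0513) to -2.97 without 4OHT of replicate 2 (adjusted p = 0.0112). It was not called without EtOH of replicate 1 (limma adjusted p = 0.193) or EtOH of replicate 2 (0.0655).

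Trfr2, now named Tfr2, encodes transferrin receptor 2, which senses transferrin in liver cells and associates with the erythropoietin receptor in red cell precursors. In the delta/delta pair it had 1773 reads with EtOH (17.5 RPKM) and 5 reads with 4OHT (0.0465 RPKM). The delta/+ pair had 637 reads (6.46 RPKM) and 5 reads (0.0434 RPKM). Both 4OHT libraries thus held next to none of this transcript. The level was 377-fold lower in the delta/delta pair (95% counting interval 161 to 1161) and 149-fold lower in the delta/+ pair (63.5 to 460). On the log2(RPKM + 1) scale, which understates changes of low genes, the estimate was -3.49 (SE 0.33, lower in 2 of 2 pairs, limma adjusted p = 0.0037). Of the 10 genes this one alone passed without the genotype term (limma adjusted p = 0.0401). In that smaller limma model the estimate was -2.84 and not called without EtOH of replicate 1 (adjusted p = 0.0787), and -4.15 without EtOH of replicate 2 (adjusted p = 0.0196).

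Steap3 encodes the endosomal reductase that turns ferric into ferrous iron after transferrin uptake in red cell precursors. Its level went from 77.3 to 35.5 RPKM in the delta/delta pair and from 48.9 to 7.42 RPKM in the delta/+ pair. The treatments did not overlap, and the 4OHT library of the delta/+ pair stood apart as the lowest. The fold was 2.18 lower in the delta/delta pair (95% counting interval 2.10 to 2.26) and 6.59 lower in the delta/+ pair (6.15 to 7.08), the opposite order of sizes from Tfrc. The estimate was -1.83 (SE 0.34, lower in 2 of 2 pairs, limma adjusted p = 0.0156), and the limma call did not survive leaving out the genotype term (adjusted p = 0.193). In that smaller limma model the estimate was -0.78 without 4OHT of replicate 2 (adjusted p = 0.328) and -2.89 without 4OHT of replicate 1 (adjusted p = 0.0178). It was -1.51 without EtOH of replicate 1 (limma adjusted p = 0.512) and -2.16 without EtOH of replicate 2 (limma adjusted p = 0.207).

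Slc11a2 encodes DMT1, the transporter that carries ferrous iron out of the endosome. EtOH and 4OHT gave 14.0 and 11.3 RPKM in the delta/delta pair, and 13.2 and 11.0 RPKM in the delta/+ pair. The treatments did not overlap, but the distances were small, 1.24-fold and 1.20-fold lower with 4OHT. The estimate of -0.27 did not pass (SE 0.14, limma adjusted p = 0.188). With median-ratio scaling it was -0.47 and passed (limma adjusted p = 0.0476).

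Promoter windows were found for 6 of the 10 genes in a RefSeq table on GRCm38.p6. Genes there have several starts, 2 for Tfrc, 3 for Trfr2 and 4 for Steap3, and the 250 bases before the first listed one are shown for Tfrc, Trfr2 and Steap3, the genes of the transferrin route that fell. Capitals mark GATAA (read by GATA factors), CACCC (read by KLF factors) and TGTGGT (read by RUNX factors), searched on both strands.
Tfrc, chr16:32608646-32608895, plus strand: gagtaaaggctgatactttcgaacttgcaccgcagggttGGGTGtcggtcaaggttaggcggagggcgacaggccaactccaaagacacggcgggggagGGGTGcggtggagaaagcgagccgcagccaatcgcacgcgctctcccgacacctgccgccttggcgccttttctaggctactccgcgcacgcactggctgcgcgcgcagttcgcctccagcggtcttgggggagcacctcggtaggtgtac
Trfr2, chr5:137569590-137569839, plus strand: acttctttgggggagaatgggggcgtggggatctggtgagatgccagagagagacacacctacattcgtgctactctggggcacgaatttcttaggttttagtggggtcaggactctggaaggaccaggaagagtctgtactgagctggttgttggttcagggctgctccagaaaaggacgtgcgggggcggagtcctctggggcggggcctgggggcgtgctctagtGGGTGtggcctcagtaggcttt
Steap3, chr1:120271081-120271330, minus strand: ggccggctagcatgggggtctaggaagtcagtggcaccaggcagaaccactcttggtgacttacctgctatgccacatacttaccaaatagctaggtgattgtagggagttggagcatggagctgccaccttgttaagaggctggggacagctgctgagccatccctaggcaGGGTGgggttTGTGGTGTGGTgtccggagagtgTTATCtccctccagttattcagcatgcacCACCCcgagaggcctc
CACCC was found in 2 of 2 windows of Tfrc, 3 of 3 of Trfr2 and 3 of 4 of Steap3, and 52.0% of 32851 windows of this length hold it. GATAA was found in 0 windows of Tfrc, in 1 of Trfr2 (2 times, in a window not printed) and in 2 of Steap3, of which 1 is printed, and 22.6% of windows hold it. TGTGGT was found in 1 of the 4 Steap3 windows, the printed one, 2 times with an overlap of 1 base, and in 0 windows of Tfrc and Trfr2, and 14.0% of windows hold it. Among the remaining genes with windows, CACCC was found in 1 of 1 of Ftl1, 1 of 2 of Fth1 and 0 of 1 of Ireb2. GATAA was found there in 1 of 2 windows of Fth1 and in 0 of Ftl1 and Ireb2. These are matches of letters, and binding was not measured.

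Slc25a37 encodes mitoferrin 1, which imports iron into mitochondria for haem synthesis. The level went from 115 to 10.2 RPKM in the delta/delta pair and from 37.0 to 11.1 RPKM in the delta/+ pair. The EtOH libraries lay far apart and the 4OHT libraries close together, with no overlap. The gene was 11.3-fold lower with 4OHT in the delta/delta pair (95% counting interval 10.7 to 11.9) and 3.32-fold lower in the delta/+ pair (3.15 to 3.51). The estimate was -2.51 (SE 0.39, lower in 2 of 2 pairs, limma adjusted p = 0.0103). The limma call did not survive leaving out the genotype term (adjusted p = 0.071). In that smaller limma model the estimate was -1.70 without EtOH of replicate 1 (adjusted p = 0.121) and -3.32 without EtOH of replicate 2 (adjusted p = 0.0196). Without 4OHT of replicate 1 or replicate 2 it was -2.45 and -2.57 (limma adjusted p = 0.0898 and 0.0716).

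The red cell markers give values to set beside these falls. The 14 that are not globins were lower with 4OHT by a median of 9.14-fold in the delta/delta pair (range 1.86 to 80.2) and 4.73-fold in the delta/+ pair (range 1.41 to 457). Trfr2 lay above the marker range in the delta/delta pair and within it in the delta/+ pair. Tfrc, Slc25a37 and Steap3 lay within the marker range in both pairs. That range is wide, and Steap3 in the delta/delta pair (2.18-fold lower) stood near its lower end. Ftl1, which also fell, lay below the range in both pairs (1.49-fold and 1.34-fold lower). Whether a gene responds differently in the 2 genotypes has no test here, since each genotype has 1 library per treatment.

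Fth1 and Ftl1 encode the heavy and light chains of ferritin, the shell that stores iron, and the heavy chain carries the ferroxidase activity that loads it. Per unit of length they were the most abundant of the 10 genes, ranking 15 to 50 among all 23240 rows. Fth1 went from 2093 to 2286 RPKM in the delta/delta pair and from 1395 to 1586 RPKM in the delta/+ pair, with overlap between the treatments. Its estimate of 0.16 did not pass (SE 0.09, limma adjusted p = 0.241), and its sign turned with median-ratio scaling (-0.07, limma adjusted p = 0.705). Ftl1 went from 1949 to 1308 RPKM and from 1885 to 1407 RPKM, without overlap. It was 1.49-fold and 1.34-fold lower (estimate -0.50, SE 0.10, lower in 2 of 2 pairs, limma adjusted p = 0.0175). The limma call for Ftl1 was lost without a filter on low values (adjusted p = 0.199) and without the genotype term (adjusted p = 0.196). In that smaller limma model, leaving out any 1 library gave adjusted p from 0.454 to 0.626. Ferritin genes have many near-identical pseudogene copies among which reads can be split, so both levels are uncertain.

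Ratios of RNA were read within each library, where scaling between libraries does not enter. They do not correct for reads split among pseudogene copies, and the balance of the ferritin protein chains was not measured. These ratios were chosen after the values were seen and are given as a description. Fth1 stood at 1.07 times the RPKM of Ftl1 with EtOH and 1.75 times with 4OHT in the delta/delta pair, and at 0.740 and 1.13 times in the delta/+ pair. The ratio was therefore 1.63-fold higher with 4OHT in the delta/delta pair and 1.52-fold higher in the delta/+ pair. The ratio of Tfrc to Fth1, the uptake receptor to the storage chain, was close in the EtOH libraries, at 0.0969 and 0.0998. With 4OHT it was 0.00897 in the delta/delta pair and 0.0299 in the delta/+ pair, 10.8-fold and 3.34-fold lower.

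**Figure D3:**
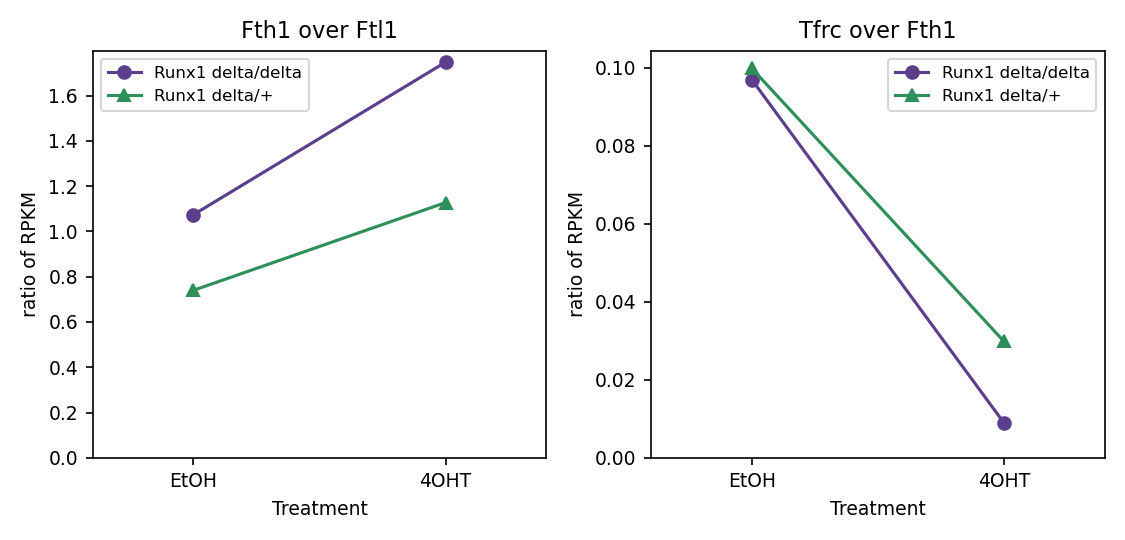
Ratios of RPKM within each library, Fth1 over Ftl1 on the left and Tfrc over Fth1 on the right, with axes from 0. Each line joins the EtOH and 4OHT libraries of 1 genotype. The left ratio is higher with 4OHT by 1.63-fold and 1.52-fold, and the right ratio is lower by 10.8-fold and 3.34-fold.

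Slc40a1 encodes ferroportin, the exporter of iron from cells. With EtOH it was the lowest of the 10 genes, at 1.64 RPKM (192 reads) in the delta/delta pair and 1.14 RPKM (130 reads) in the delta/+ pair. With 4OHT it had 0.999 RPKM (124 reads) and 0.330 RPKM (44 reads), both below the EtOH values. The level was 1.64-fold lower in the delta/delta pair (95% counting interval 1.31 to 2.08) and 3.45-fold lower in the delta/+ pair (2.44 to 4.98). The estimate of -0.54 did not pass (SE 0.20, limma adjusted p = 0.0896), and with median-ratio scaling it was -0.65 and passed (limma adjusted p = 0.0438). Macrophages are well known for this exporter. Of 16 macrophage markers 2 could be tested, Cd68 and Lyz2, with limma adjusted p = 0.122 and 0.358. Summed over the 16, the level was 5.80 to 10.4 RPKM and highest in 4OHT of the delta/delta pair, with 2 to 8 of the 16 at 0 in a library, and Marco and Cd5l were at 0 in every library.

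Hmox1 encodes haem oxygenase 1, which breaks haem down and frees its iron, and is repressed by BACH1 and induced by NRF2. The level went from 3.54 to 9.52 RPKM in the delta/delta pair and from 14.9 to 24.5 RPKM in the delta/+ pair. The treatments overlapped, since EtOH of the delta/+ pair was above 4OHT of the delta/delta pair. Within pairs the gene was 2.69-fold higher with 4OHT (95% counting interval 2.28 to 3.18) and 1.64-fold higher (1.51 to 1.79). The estimate was 0.95 (SE 0.18, higher in 2 of 2 pairs, limma adjusted p = 0.0158), and the limma call did not survive leaving out the genotype term (adjusted p = 0.474). In that smaller limma model the estimate was 0.04 without EtOH of replicate 1 (adjusted p = 0.985) and 0.31 without 4OHT of replicate 2 (adjusted p = 0.847). It was 1.58 without 4OHT of replicate 1 (limma adjusted p = 0.258) and 1.85 without EtOH of replicate 2 (limma adjusted p = 0.139).

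Ireb2 encodes iron regulatory protein 2, a binder of the elements printed earlier. The delta/delta pair had 4.19 RPKM with EtOH against 3.42 with 4OHT, and the delta/+ pair had 8.22 against 8.25 RPKM. The treatments overlapped and the genotypes did not. The change with 4OHT did not pass (-0.11, SE 0.15, limma adjusted p = 0.593).

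In order of RPKM within a library, Fth1 and Ftl1 held the top ranks everywhere, with Ftl1 ahead in EtOH of the delta/+ pair and Fth1 ahead in the other 3 libraries. Tfrc followed at rank 3 in 3 libraries and at rank 4 in 4OHT of the delta/delta pair, where Steap3 had rank 3. Trfr2 was last in both 4OHT libraries and Slc40a1 in both EtOH libraries.

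Between the genotypes 3 of the 10 genes differed in the same model (limma adjusted p under 0.05), as did 11.6% of all 9595 genes. Hmox1 was lower in Runx1 delta/delta, with a mean of 6.53 RPKM against 19.7 in Runx1 delta/+ (log2 difference -1.54, SE 0.18, limma adjusted p = 0.0176). Ireb2 was lower too, with a mean of 3.81 RPKM against 8.24 (log2 difference -0.95, SE 0.15, limma adjusted p = 0.029). Fth1 was higher in Runx1 delta/delta, with a mean of 2190 RPKM against 1491 (log2 difference 0.56, SE 0.09, limma adjusted p = 0.0303). Both delta/+ libraries were above both delta/delta libraries for 2 of the 10 genes (21.4% of all genes), and the reverse held for 1 (17% of all genes). The Steap3 difference of 1.38 did not pass (SE 0.34, limma adjusted p = 0.0602), and with median-ratio scaling it was 1.46 and passed (limma adjusted p = 0.0145). Over all genes 449 were higher and 663 lower in Runx1 delta/delta, against 984 and 810 with median-ratio scaling and 312 and 1130 with globin genes left out of the totals. The 3 limma calls were lost without a filter on low values (adjusted p = 0.0636 for Hmox1, 0.0895 for Ireb2 and 0.235 for Fth1). They were lost as well without the treatment term (limma adjusted p = 0.53, 0.528 and 0.528), also with any 1 library left out, where 0 genes passed and 1 to 3 of the 10 had an unadjusted p under 0.05.

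Other genes of iron handling were read from lists, with the delta/delta pair given first and the delta/+ pair second. The counts are to be read beside the 22.2% of all genes that rose and the 10.2% that fell. Of 8 tested genes of transferrin and membrane iron uptake 2 rose and 1 fell (median log2 change 0.02). Picalm, a clathrin adaptor needed for transferrin receptor uptake in red cell precursors, fell from 159 to 44.5 RPKM in the first pair and from 133 to 49.1 in the second (limma adjusted p = 0.00375). The metal ion importer Slc39a14 rose from 0.527 to 3.76 RPKM in the first pair and from 1.17 to 4.26 in the second (limma adjusted p = 0.00666). Its relative Slc39a8 rose from 12.3 to 17.3 RPKM in the first pair and from 8.99 to 18.4 in the second (limma adjusted p = 0.0313). Lcn2, which binds iron carriers of bacteria, had a change of 0.37 without a call (limma adjusted p = 0.123). The shares of 2 and 1 in 8 are near those of all genes. The Slc39a8 call was lost in limma without a filter on low values (adjusted p = 0.0683) and with median-ratio scaling (0.0673). In this list 1 gene rose and 2 fell with that scaling, and 0 rose and 1 fell without the genotype term.

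Of 10 tested genes of iron sensing and systemic control 1 rose and 1 fell (median 0.21). Tmprss6, a membrane protease that restrains hepcidin in liver, fell from 4.65 to 0.128 RPKM in the first pair and from 5.25 to 0.143 in the second (limma adjusted p = 0.00275). Smad4, the shared partner of SMAD signalling, rose from 7.23 to 12.3 RPKM in the first pair and from 8.36 to 12.6 in the second (limma adjusted p = 0.0266). Aco1, which encodes iron regulatory protein 1, had a change of -0.49 without a call (limma adjusted p = 0.0666). Ncoa4, the receptor that delivers ferritin for degradation, had 46.8 and 48.0 RPKM in the delta/delta pair against 46.9 and 115 in the delta/+ pair, so that 1 library was high, without a call (limma adjusted p = 0.148). The Smad4 call was lost in limma without a filter (adjusted p = 0.0672) and with median-ratio scaling (0.0768). With that scaling 0 genes of this list rose and 2 fell, with globin genes left out of the totals 1 rose and 2 fell, and without the genotype term 0 rose and 1 fell.

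Of 16 tested genes of mitochondrial iron import and iron-sulphur cluster assembly 1 rose and 1 fell (median 0.09). Abcb10, a mitochondrial transporter that binds mitoferrin 1, fell from 128 to 46.4 RPKM in the first pair and from 85.2 to 57.5 in the second (limma adjusted p = 0.0268). Fdx1l, a ferredoxin of cluster assembly, rose from 6.80 to 16.9 RPKM in the first pair and from 4.93 to 9.93 in the second (limma adjusted p = 0.00876). Abcb8 and Lyrm4 had changes of 0.42 and 0.31 without a call (limma adjusted p = 0.0655 and 0.156). The 2 calls in 16 are a smaller share than the 32.4% called over all genes. The Abcb10 call was lost in limma without a filter (adjusted p = 0.0602). With median-ratio scaling 1 rose and 2 fell, and without the genotype term 0 genes of this list were called.

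Of 4 tested genes of iron export and haem transport 2 rose and 1 fell (median 0.16). Mfsd7b, the haem exporter FLVCR1, rose from 2.38 to 6.98 RPKM in the first pair and from 3.69 to 8.90 in the second (limma adjusted p = 0.00676). Pgrmc1, a haem-binding membrane protein, rose from 19.5 to 36.9 RPKM in the first pair and from 23.1 to 30.3 in the second (limma adjusted p = 0.043). Abcg2, an exporter of porphyrins, fell from 60.7 to 20.4 RPKM in the first pair and from 52.4 to 38.2 in the second (limma adjusted p = 0.0426). Slc48a1, a haem importer, had 78.1 and 78.8 RPKM in the delta/delta pair against 84.7 and 54.7 in the delta/+ pair, without a call (limma adjusted p = 0.262). In limma without a filter the calls of Pgrmc1 (adjusted p = 0.0743) and Abcg2 (0.0887) were lost, and Pgrmc1 was also lost with globin genes left out of the totals (0.0571) and with median-ratio scaling (0.0872). With that scaling 1 rose and 2 fell, and without the genotype term 0 were called.

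Around Hmox1, 1 of 13 tested genes of haem breakdown and the BACH1 and NRF2 pathway rose and 4 fell (median -0.08). Nqo1, a quinone reductase and NRF2 target, fell from 35.8 to 9.65 RPKM in the first pair and from 34.8 to 5.92 in the second (limma adjusted p = 0.0032). Txnrd1, thioredoxin reductase 1 and also an NRF2 target, rose from 45.7 to 109 RPKM in the first pair and from 44.6 to 89.0 in the second (limma adjusted p = 0.00651). Blvrb, a biliverdin reductase abundant in red cells, fell from 1085 to 551 RPKM in the first pair and from 564 to 391 in the second (limma adjusted p = 0.0161). Srxn1, a further NRF2 target, fell from 37.1 to 25.4 RPKM in the first pair and from 32.0 to 20.9 in the second (limma adjusted p = 0.0306). The fourth gene that fell, named after its values were seen, was Bach1, the repressor of Hmox1, from 10.5 to 5.95 RPKM in the first pair and from 8.99 to 6.33 in the second (limma adjusted p = 0.0368). In limma without a filter the calls of Blvrb (adjusted p = 0.0654) and Bach1 (0.1) were lost. With median-ratio scaling 1 rose and 5 fell, and without the genotype term 0 rose and 1 fell.

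The haem synthesis enzymes, which use the iron that mitoferrin delivers, had 6 falls and 0 rises among 9 tested genes (median -1.32). Fech, the ferrochelatase that inserts iron into haem, fell from 196 to 28.6 RPKM in the first pair and from 122 to 26.6 in the second (limma adjusted p = 0.00257). Cpox, an enzyme of the later steps, fell from 798 to 190 RPKM in the first pair and from 542 to 99.4 in the second (limma adjusted p = 0.00183). Alas2, the first enzyme of the route in red cells, fell from 265 to 13.9 RPKM in the first pair and from 80.9 to 12.7 in the second (limma adjusted p = 0.00511). Uros fell from 65.2 to 15.5 RPKM in the first pair and from 39.5 to 15.4 in the second (limma adjusted p = 0.00631). With median-ratio scaling 8 of the 9 fell, and without the genotype term 1 did.

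**Figure D4:**
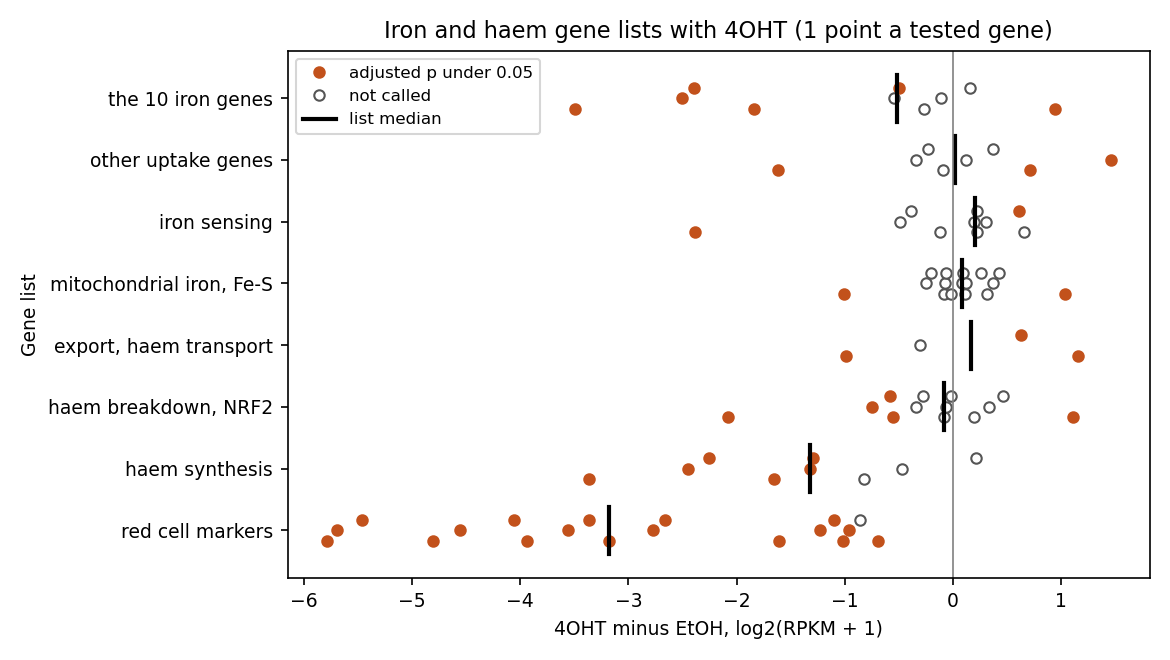
4OHT minus EtOH in log2(RPKM + 1), 1 point per tested gene, for the 10 iron genes, 6 lists of related genes and the red cell markers. Filled points have a limma adjusted p under 0.05, open points do not, and bars are list medians. The median is -0.52 for the iron genes, -1.32 for haem synthesis, -3.18 for the red cell markers, and -0.08 to 0.21 for the other lists.

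For 4 of the iron genes, the nearest profiles were taken among tested genes whose mean reached 5 RPKM, by the root mean square difference of centred log2(RPKM + 1) over the 4 libraries. With 4 libraries this is a description, and for low genes the added 1 flattens the profile. Nearest to Tfrc were Lgmn (0.10), Spna1 (0.16) and Epb4.2 (0.19), of which Spna1 and Epb4.2 belong to the red cell membrane skeleton and Lgmn is a lysosomal protease. St3gal2 (0.11), Alas2 (0.16) and Hemgn (0.18) were nearest to Trfr2, but on the plain RPKM scale they were only 61.6-, 19.1- and 19.8-fold lower with 4OHT in the delta/delta pair, against 377-fold for Trfr2. Those nearest to Slc25a37 were Btg2 (0.24), Gstt1 (0.25) and Dusp1 (0.27). Stx11 (0.03), Zfand3 (0.04) and Zmiz2 (0.05) were nearest to Slc40a1, but in the delta/+ pair they were 1.66-, 1.68- and 1.57-fold lower in plain RPKM, against 3.45-fold for Slc40a1. For Trfr2 and Slc40a1 the nearness therefore holds on the log2(RPKM + 1) scale and not for the folds. Folds differed for the others too. In the delta/delta pair the neighbours of Tfrc were 11.7- to 15.4-fold lower, against 9.89-fold for Tfrc. Those of Slc25a37 were 7.27- to 17.2-fold lower in that pair, against 11.3-fold for Slc25a37.

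The authors' deposited table compares 1 library with 1 library under each replicate number by Kal's Z-test. It lists 6 of the 10 genes with a corrected p under 0.05 in replicate 1, and 5 in replicate 2. The share of all rows listed was not counted, so these counts say nothing about the 10 genes as a set. Tfrc, Slc25a37, Steap3 and Ftl1 are lower with 4OHT in both replicates in the authors' deposited table, and Fth1 is higher in both, with a fold of 1.16 and 1.18. Trfr2 is listed in replicate 1 (corrected p = 0.00233) but not in replicate 2 (0.372) in the authors' deposited table. Hmox1 has a fold of 2.87 and 1.70 in the authors' deposited table, with corrected p-values of 0.771 and 1. Thus the authors' table lists Fth1, which limma did not call, and does not list Hmox1, which limma called. The tests are unlike, since a comparison of 1 library with 1 library holds no spread between libraries. The authors' folds also follow proportions of the summed RPKM, which are not read counts. With EtOH and 4OHT, Trfr2 had 637 and 5 reads in replicate 2, and Hmox1 had 193 and 551 in replicate 1. Neither gene is listed for that replicate. Why the 2 tests differ for these genes was not tested.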

How the data were processed

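The authors' deposited table gives 1 RPKM value per gene and library, with reads mapped to mm9 per the submitters' processing notes. Not given in the sources used here were the aligner, counting rule, annotation, strand and the kit of each library. Per the file headers it also gives Kal's Z-test with its fold of proportions (a score, negative where lower) and its p-value and corrected p-value. The submitters' folds were recomputed from the RPKM values for the 13149 and 12844 genes with a fold and a level above 0 in both libraries. All of these were within 0.1%, which tied the folds to replicates 1 and 2. Other rows with a fold were not compared.

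Of 23240 rows 17213 were above 0 in a library, and 9595 with a mean of at least 1 RPKM were tested, all 10 iron genes included. limma 3.58.1 (R 4.3.3) was run on log2(RPKM + 1) with treatment and genotype terms, a trended prior and 1 residual degree of freedom, two-sided. Genotype equals the replicate number. The deviations of same-numbered libraries from their arm means correlated at 0.664 across genes, which are not replicates. The fit was tested on simulated data under 2 models of the gene variances. Under variances drawn from limma's own prior, false calls were near the nominal share. Under the fit's shrunken variances, tried first, the false share exceeded it several times over, and the passing criterion was then set on the other model, so calls near the threshold are less certain than their adjusted p.

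Library totals and read counts were recovered from the steps of the RPKM values: 3349 of 3394 low genes (98.7%) gave a whole gene length within 0.05. The total was chosen to make such lengths whole, so this share does not check the absolute depth. The absolute scale was set from genes with 1 annotated transcript, of which 138 of 549 shared the same factor to the annotated length. Several lengths gave whole reads (within 0.02) for a gene, and the one nearest an annotated transcript was used. Counting intervals are 95% Poisson intervals and cover counting error only. The genes and lists were chosen with earlier results of these data known. Named genes were the 10 iron genes, up to 4 genes per list with the smallest p, and the 3 nearest profiles of 4 iron genes. Runx1 and Flt3 were named for the labels, and the untested markers Kit, Cd34, Mpo, Itgam, Marco and Cd5l, with Ly6c2, to check the cell type and sort. Bach1 was added after its values were seen. Reference sequences and coordinates are on GRCm38 and were not mixed with the mm9 values. Alternatives were a pseudocount of 0.1, no filter, median-ratio scaling, totals without globin genes, no genotype or treatment term, and each library left out.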

Additional observations from a re-analysis of the deposited data

Results flagged for a closer look

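For 4 genes the change with 4OHT had opposite signs in the 2 genotypes, though none of them passed the test for 4OHT (limma adjusted p = 0.593 for Ireb2, 0.262 for Slc48a1, 0.752 for Flt3 and 0.75 for Ctsg). The differences between genotypes were not tested, since each genotype has 1 library per treatment. For Ireb2 the log2(RPKM + 1) change was -0.23 for the delta/delta libraries against 0.004 for those of delta/+, a difference of -0.2353, and the counting interval of its fold in delta/+, 0.938 to 1.07, includes no change. Slc48a1, the haem importer, had values of 0.01 and -0.62, the first close to 0, a difference of 0.6342. Flt3, the receptor gene of the cell label, had values of 0.39 and -0.22, a difference of 0.603. Ctsg, which encodes the myeloid protease cathepsin G, had values of 0.37 and -0.63, a difference of 0.9976, at levels of 0.355 to 1.93 RPKM.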

How the results depend on the processing

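With 4OHT, 6 iron genes and 3113 genes in all were called. Without the genotype term (no replicate block), which equals the pairing by replicate number, these counts were 1 and 233. Leaving out each library in turn in that smaller model gave 0 to 2 iron genes and 3 to 245 of all genes (3 without EtOH replicate 1, 206 without 4OHT replicate 1, 234 without EtOH replicate 2, 245 without 4OHT replicate 2). The 4 other alternatives gave 5 to 8 iron genes. Between the genotypes, 3 iron genes and 1112 genes in all were called. Without a filter on low values these were 0 and 0 in limma (4 and 3906 at an unadjusted p under 0.05), and without the treatment term 0 and 0 (3 and 880). With any 1 library also left out they were 0 and 0 (1 to 3 iron genes and 169 to 627 genes at an unadjusted p under 0.05), and with median-ratio scaling 4 and 1794. Over the single iron genes, 64 of 90 alternative values for 4OHT stayed on their side of the threshold, 24 were lost and 2 were gained, and for genotype 71, 18 and 1 of 90. No called value changed sign (0 of these). The cause was not tested. Fits that leave out a library also lack the genotype or treatment term, so both choices change at once. With 1 residual degree of freedom the test leans on a prior worth 4.37 degrees of freedom, and fits without a library assume that the lone library of an arm varies like the others. Depth limits Trfr2 with 4OHT, where 5 reads per library set the width of its fold.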
